A study of Caenorhabditis elegans with 2 samples.

Results

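The genes described here are the cuticle collagen genes of Caenorhabditis elegans, taken as all protein-coding genes named col- followed by a digit together with 14 collagen genes named for the body shape of their mutants (rol-6, sqt-1, sqt-3, bli-1, bli-2, dpy-2, dpy-3, dpy-5, dpy-7, dpy-8, dpy-9, dpy-10, dpy-13 and dpy-17). The rule found 170 genes among 19973 protein-coding genes on the nuclear chromosomes, 156 of them by the col- name. They were scored by where LSY-2 was located by chromatin immunoprecipitation and sequencing in whole L1 larvae that had been starved after bleaching. LSY-2 is a factor with C2H2 zinc fingers, known for its role in making the paired ASE taste neurons differ between left and right. There was 1 group of 2 biological replicates, each of pooled males and females of strain OP367, which carries the unc-119 mutation tm4063 and the transgene wgIs367 with an eGFP-tagged lsy-2. No group without the tag or of another stage was available for comparison, so the collagen genes were set against all protein-coding genes and the replicates against each other. The driver of the transgene is not named in the labels, and whole animals were used, so a summit cannot be given to the epidermis or to any other tissue. Nothing in the labels beyond the replicate numbers describes how separate the cultures were.

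The cuticle of C. elegans is an exoskeleton secreted by the epidermis (hypodermis) and replaced at each larval molt, and most of its protein is small collagen with Gly-X-Y repeats. A large gene family encodes these collagens, which are switched on in waves ahead of each molt. Mutations in single members can make animals short (Dpy), rolling (Rol), squat (Sqt) or blistered (Bli). Larvae that hatch without food arrest in L1 before the first molt.

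A gene was scored by the summits that fell in a promoter window reaching 1000 bp before its annotated 5′ end and 200 bp past it. Summits and signal values are the authors' own: the thresholded list held 6850 peaks with signals of 68.8 to 24270 and a median of 169, and the pooled list of peaks and background held 30000 regions with signals of 13.6 and above. Read depth is unknown, so signals are used to describe and rank peaks within a list and carry no counting error. Over the 6616 thresholded peaks with a region of each replicate within 100 bp, the SD of the log2 ratio (replicate 2 over replicate 1) was 0.52, or 1.43-fold. The comparisons below have no p-values, since the peak list comes from both replicates together and the collagen genes are paralogs, some of which share a promoter.

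Few cuticle collagen genes had an LSY-2 summit in their promoter window, and the median signal of those with one was lower than over all genes with one. A thresholded summit lay in the window of 16 of the 170 collagen genes, or 9.41%, where 21.1% of all protein-coding genes had one. Any region of the pooled list, background included, had its summit in the window of 34 collagen genes, or 20%, against 37.7% of all genes. The median signal of the strongest summit was 122 over the 16 collagen genes and 283 over the 4216 genes of the whole genome with one. A signal of 100 to 200 was held by 8 of the 16 collagen genes (50%), against 24.5% of all genes with a summit. Among these 8, col-3 and col-117 shared a summit, as did col-159 and col-160. A signal of 200 to 1000 was held by 4 of the 16 (25.0%), against 50.6%. Where a pooled region was present, 16 of 34 collagen genes (47.1%) also had a thresholded summit, against 56.0% of all genes. The strongest summit in the window lay at a median of -379 bp from the 5′ end over the 16 collagen genes and -226 bp over all genes. Of the 14 distinct collagen summits, 5 were nearest to another gene's 5′ end, and 2 counted for 2 collagen genes each. The medians were not taken without such summits.

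The 16 genes were reached by 14 distinct summits, and the strongest of these lay beside another gene. Counted by summit, 8 of the 14 had a signal under 169, the median of all thresholded peaks. The summit of col-38 had a signal of 5900, rank 84 of the thresholded list, with 3040 in replicate 1 and 2883 in replicate 2. Its peak lay on chromosome II from 8569259 to 8569769, between the divergent 5′ ends of col-38 and of rpl-5, a gene for a protein of the large ribosomal subunit, at -432 bp from the start of col-38 and -407 bp from that of rpl-5. The summit also lay within 2 annotated non-coding RNA genes, F54C9.16 and F54C9.17. The summit of col-2 had a signal of 768, with 414 and 350 in replicates 1 and 2, on chromosome IV from 10085733 to 10086031. It lay at -433 bp from col-2 and nearer, at -253 bp, to ndc-80, which encodes a kinetochore protein. The summit of col-71 had a signal of 484, with 240 and 247 in the replicates, at -259 bp from col-71 and nearer, at -139 bp, to Y49F6B.2. The summit of col-8 had a signal of 608, with 304 and 297 in the replicates, on chromosome III from 7021340 to 7021637. It was at -866 bp from col-8 and 260 bp past the 5′ end of rfl-1, in an intron of that gene, which encodes a subunit of the enzyme that activates the ubiquitin-like protein NED-8. The window of rfl-1 ended before this summit, so the summit counted for col-8 alone although it was nearest to rfl-1. Among the 5 summits with a signal of at least 200, that of col-103 was the exception, with 296 in the thresholded list and 134 and 163 in replicates 1 and 2. It lay at -185 bp from col-103, and no other protein-coding gene had it in its window.

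**Figure D1:**
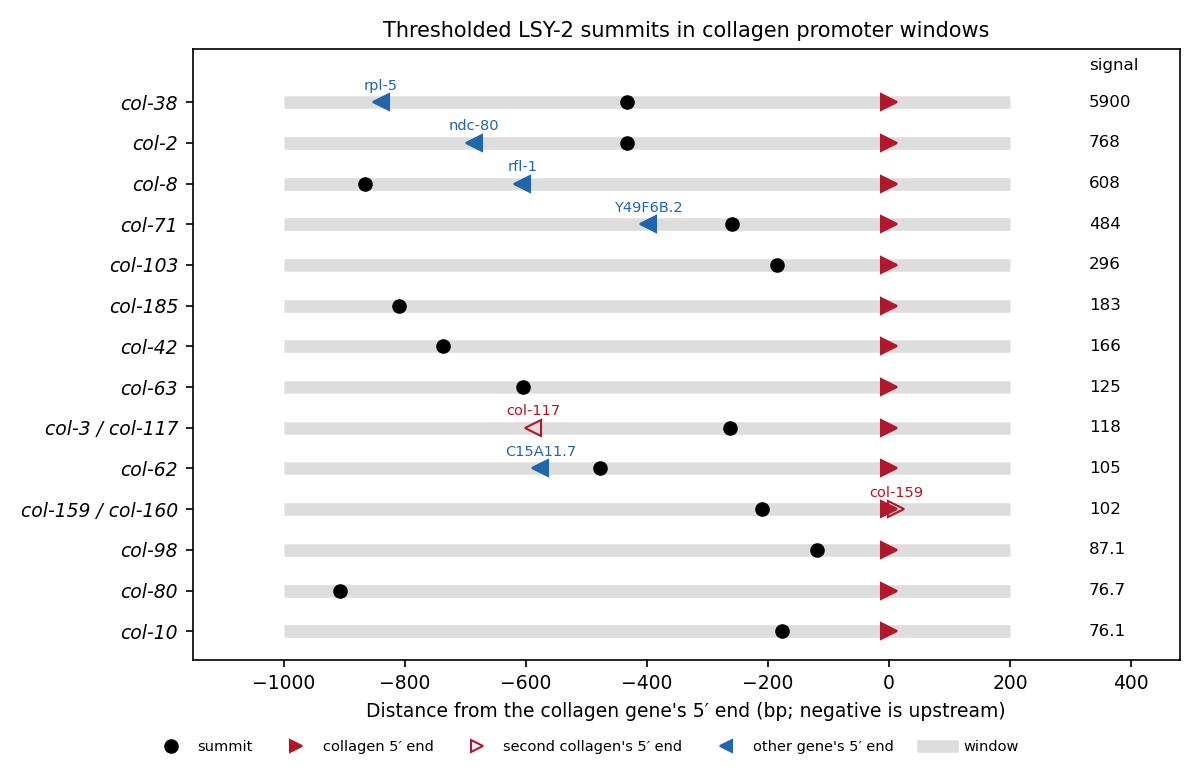
Position of each of the 14 thresholded summits relative to the 5′ end of the collagen gene on a scale in bp, with the authors' signal at the right. Black circles are summits, filled red triangles the 5′ end of the named collagen gene (the nearer one where 2 share the summit), open red triangles that of a second collagen gene, blue triangles that of another gene and grey bars the promoter window. The summits of col-38, col-2, col-8, col-71 and col-62 are nearest to the 5′ end of another gene.

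The letters around 7 summits are shown to set some of the summits beside another gene's start against those with a collagen gene alone at hand. Each line gives the summit base and 50 bases to either side on the plus strand of the WBcel235 genome (RefSeq). Capitals mark any of the searched words listed further on, on either strand, and lower case all other bases. The first pair comes from the promoters of col-38 with rpl-5 and col-2 with ndc-80, and the other 5 from summits where the nearest 5′ end belonged to a collagen gene at less than 400 bp.
col-38 and rpl-5, chrII:8569470-8569570: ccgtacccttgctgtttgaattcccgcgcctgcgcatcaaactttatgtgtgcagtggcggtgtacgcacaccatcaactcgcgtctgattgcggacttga
col-2 and ndc-80, chrIV:10085834-10085934: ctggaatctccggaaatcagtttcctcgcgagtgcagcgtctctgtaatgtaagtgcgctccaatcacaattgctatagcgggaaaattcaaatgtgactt
col-103, chrIV:763813-763913: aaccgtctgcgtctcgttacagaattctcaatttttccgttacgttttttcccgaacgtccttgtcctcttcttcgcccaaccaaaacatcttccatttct
col-3 and col-117, chrIV:8824471-8824571: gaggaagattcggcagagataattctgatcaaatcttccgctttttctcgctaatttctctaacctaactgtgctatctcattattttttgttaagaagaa
col-159 and col-160, chrV:13202349-13202449: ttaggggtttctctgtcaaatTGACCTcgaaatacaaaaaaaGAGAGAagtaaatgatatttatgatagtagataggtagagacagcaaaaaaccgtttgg
col-98, chrIII:13018839-13018939: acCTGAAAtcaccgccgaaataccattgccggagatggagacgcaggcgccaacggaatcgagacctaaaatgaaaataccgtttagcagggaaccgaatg
col-10, chrV:9165434-9165534: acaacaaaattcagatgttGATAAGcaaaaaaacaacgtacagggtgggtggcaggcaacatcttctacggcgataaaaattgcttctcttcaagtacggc

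GC content was 54.5% in the window of col-38 and 45.5% in that of col-2. At the summits of col-8 and col-71, also nearest to another gene but not printed, it was 47.5% and 41.6%. In the printed collagen-only windows it was 43.6% at col-103, 34.7% at col-3 and col-117, 33.7% at col-159 and col-160, 50.5% at col-98 and 41.6% at col-10. At col-42, col-185 and col-80, also nearest to a collagen gene but not printed, it was 47.5%, 28.7% and 34.7%. The values at col-62 and col-63 are not given here. The median was 41.6% over the 14 collagen summits and 43.6% over all 6850 summits. No searched word occurred at col-38, col-2, col-103 or the shared summit of col-3 and col-117.

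When a summit counted for the gene with the closest 5′ end only, 9 of the 14 stayed with a collagen gene, so that 9 collagen genes (5.29%) had one, against 16.0% of all genes. A summit in no other gene's window was held by 8 collagen genes (4.71%), against 11.2% of all genes. The 8 became 3 with a window of 500 bp upstream and 100 bp downstream, and 3 with the stronger 3425 peaks alone. The 9 summits nearest to a collagen gene fell into 2 sets by distance. The 5 printed above, at less than 400 bp, served 7 genes, with signals of 76.1 to 296. The other 4, at -605 to -907 bp, were those of col-185, col-42, col-63 and col-80, with signals of 183, 166, 125 and 76.7.

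Pairs of collagen genes shared 2 of the close summits. col-3 and col-117 lie head to head on chromosome IV with 587 bp between them, and their annotated proteins of 299 residues are 100% identical. Their common summit had a signal of 118, with 50.5 in replicate 1 and 70.2 in replicate 2, at -262 bp from col-3 and -326 bp from col-117. Of the 31-base words in the whole of either window, 53.4% occur more than 1 time in the genome, so some reads of the window can map to more than one place. How such reads were treated is not given in the sources used here. The windows reach into both genes, and the share of such words at the summit itself was not counted. col-159 and col-160 overlap on the minus strand of chromosome V, and their proteins are 97.5% identical. Their summit had a signal of 102, with 51.3 and 51.1 in the replicates, at -222 and -210 bp from the 5′ ends, which are too close to tell the genes apart. col-98, on chromosome III from 13019008 to 13020226, had a signal of 87.1 at -119 bp, with 37.1 and 46.4 in the replicates. col-10, on chromosome V from 9164292 to 9165307, had a signal of 76.1 at -177 bp, with 29.0 and 51.2.

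Of the 4 summits further upstream, 3 lay in or beside other annotated features. That of col-185, on the X chromosome, was 63 bp from a tRNA gene. Of all thresholded peaks, 2.93% had a tRNA gene within 100 bp of the summit. That of col-63 fell in the 3′ UTR of ceh-8, a homeobox gene, and in the non-coding RNA gene ZK265.11. That of col-80 fell in an intron of dph-2, a gene of diphthamide synthesis whose span on chromosome II holds 4 collagen genes, col-79, col-39, col-80 and bli-1. The summit of col-42 lay in no annotated gene. Beyond these, col-62 shared a summit with a signal of 105 with C15A11.7, at -478 bp from col-62 and -98 bp from C15A11.7.

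Both replicates had a region with its summit within 100 bp of each of the 14 summits, as they did at 6616 of all 6850 thresholded peaks. Replicate 2 over replicate 1, on the log2 scale, was 0.05 in the median at the 14 collagen summits and 0.20 over all thresholded peaks. At 10 of the 14 summits the replicates differed by no more than the SD over all peaks, and the 5 summits of at least 200 were among them. The share of all peaks within that SD was not counted. The widest gap was at col-80, with 13.5 in replicate 1 and 48.0 in replicate 2. There a stronger region of replicate 1 with a signal of 34.0 overlapped the peak, with its summit further away. The other gaps over 1.43-fold were at col-63, with 74.9 in replicate 1 and 51.0 in replicate 2, col-62, with 38.1 and 63.2, and col-10. In replicate 2 all 14 regions ranked within the strongest 6850 of that list, and in replicate 1 it was 12, with col-80 at rank 19034 and col-10 at rank 7952. These ranks were not counted in the same way over all thresholded peaks.

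**Figure D2:**
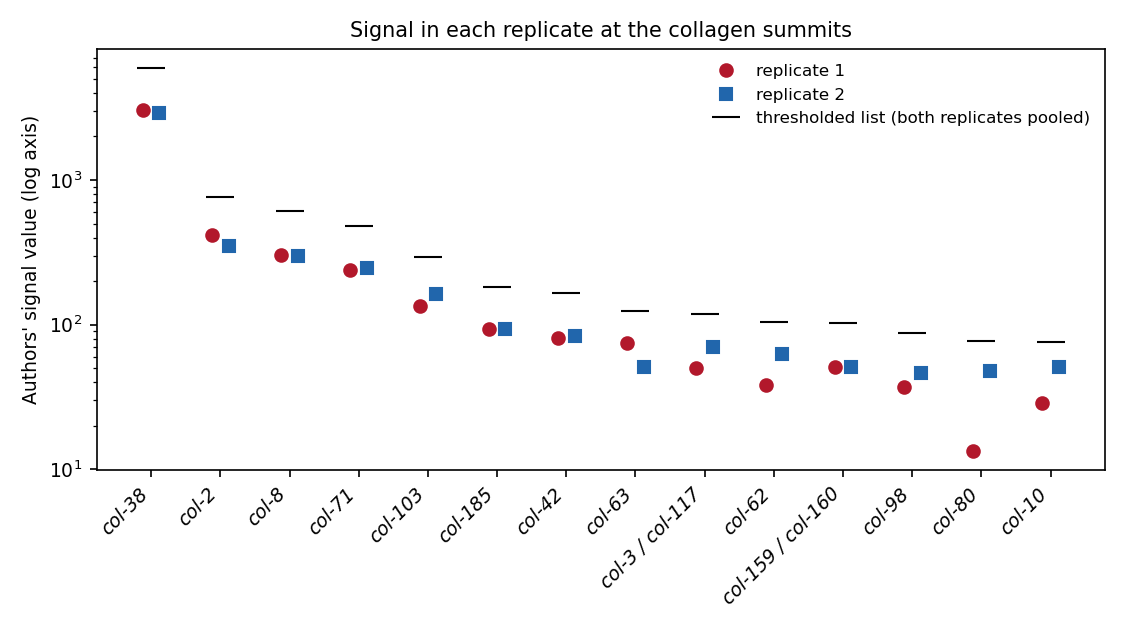
The authors' signal value, on a log axis, at the 14 collagen summits in replicate 1 (circles), replicate 2 (squares) and the thresholded list made from both (dashes), with summits in order of the last. The replicates sit close together from col-38 to col-42 and apart at col-80, with 13.5 in replicate 1 and 48.0 in replicate 2.

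Of the 14 collagen genes named for a body shape, 0 had a thresholded summit in the window and 4 had a pooled region, beside 21.1% and 37.7% of all genes. The difference from all genes or from the other collagen genes was not tested. Of the 6 collagens of the annular furrows, which cross the cuticle in rings and whose loss makes animals Dpy, dpy-10, dpy-8 and dpy-2 had a pooled region, with signals of 61.8, 18.8 and 14, and dpy-3, dpy-7 and dpy-9 had none. dpy-10, on chromosome II from 6710149 to 6712227, had its region at -255 bp, with signals of 33.0 in replicate 1 and 27.9 in replicate 2. Its −log10 q was 4.19, the value of all thresholded peaks. That value was also held by 846 pooled regions outside the thresholded list, those of dpy-10, col-166 and col-111 among them. dpy-17 had a pooled region of 35.2 at -122 bp, with 20.5 and 20.3 in the replicates. dpy-8 had 9.84 and 18.0 in the replicates, and dpy-2 had 19.5 in replicate 2 and no region within 100 bp in replicate 1. No pooled region lay in the window of dpy-5, dpy-13, sqt-1, sqt-3 or rol-6, nor of bli-1 or bli-2, which encode collagens of the struts that join the layers of the adult cuticle.

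Another 14 col- genes had a pooled region alone, so that 18 members in all were in this state and 136 had no region. All 18 regions lay in no other protein-coding gene's window, 16 were upstream of the 5′ end and 12 within 350 bp upstream. Each replicate had a region within 100 bp at 9 of them, 1 replicate at 7 and neither at 2. The window itself reaches 1000 bp upstream and 200 bp downstream. The same counts were not made over all genes with a pooled region alone, so they mark no trait of collagen genes. The highest signal of the 18 regions was at col-166, with 66.6 at -178 bp and 35.3 and 40.4 in the replicates. It was followed, after dpy-10, by col-111 at 60.7, with 16.0 and 37.9 in the replicates, and col-107 at 53.0, with 29.4 in replicate 2 and none in replicate 1. Next came col-144 with 38.1, then col-167 with 27.6, col-79 with 27.5, col-89 with 23.0 and col-180 with 22.1. The other 6 col- genes, namely col-119, col-153, col-149, col-39, col-52 and col-152, had signals of 13.8 to 20.5. The weakest thresholded summits of collagen genes, 76.1 at col-10 and 76.7 at col-80, were less than 1.43-fold above the strongest regions outside the thresholded list, 66.6 at col-166 and 61.8 at dpy-10.

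**Figure D3:**
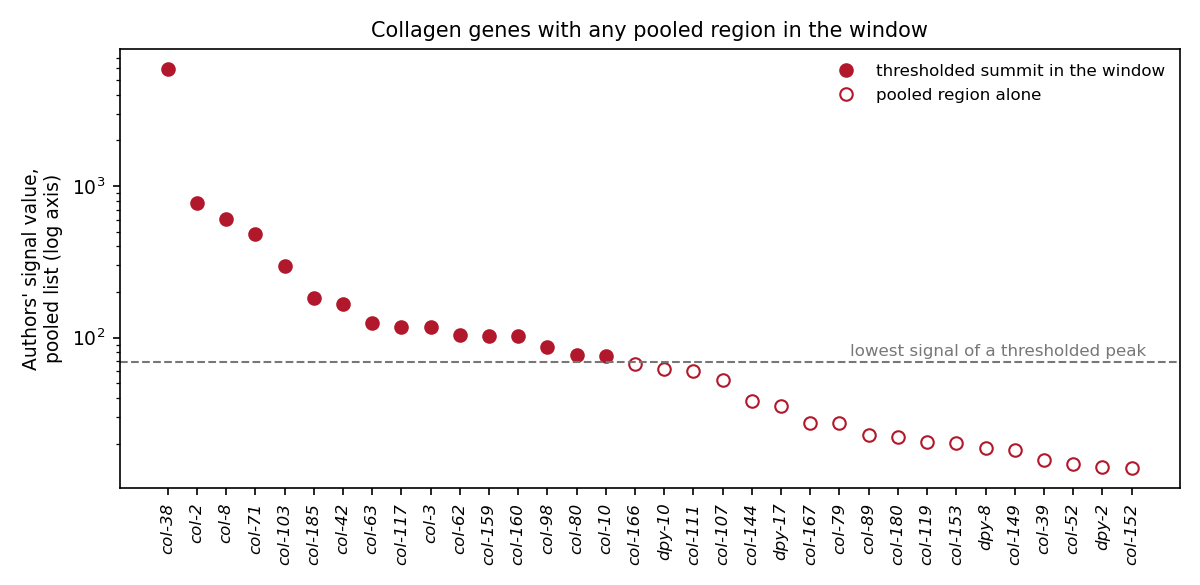
Signal in the pooled list, on a log axis, of the strongest region in the window of each of the 34 collagen genes that had one, in falling order. Filled circles are genes with a thresholded summit, open circles genes with a pooled region alone, and the dashed line the lowest thresholded signal, 68.8. The values run on without a step at the line, from 76.1 at col-10 to 66.6 at col-166.

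The window decided a few cases. Just inside its upstream edge were col-80 at -907 bp, col-8 at -866 bp and col-185 at -810 bp. Just outside were col-145, with a summit of signal 143 at -1046 bp, and col-55, with 169 at -1066 bp. Past the downstream edge lay summits of 271 at 369 bp in col-85 and 2135 at 471 bp in col-72, and the nearest thresholded summit of col-107 was at -1376 bp with 74.2. These 5 lay closest outside the window. Further out, col-94 had a summit of 920 at -1768 bp, and it was reached, like these 5, by a window of 2000 bp upstream and 500 bp downstream, in which 22 collagen genes had a summit (12.9%, against 27.1% of all genes). The median distance from a 5′ end to the nearest thresholded summit was 6354 bp for collagen genes and 5998 bp for all genes.

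The lower share was found in most parts of the genome. By chromosome, collagen genes had a summit in 2 of 22 cases on I (9.09%, against 30.6% of all genes there), 3 of 30 on II (10%, against 20.9%) and 2 of 13 on III (15.4%, against 32.9%). The counts were 4 of 43 on IV (9.30%, against 19.3%), 4 of 32 on V (12.5%, against 13.6%) and 1 of 30 on X (3.33%, against 15.9%). The share was below that of all genes on each chromosome, by the smallest margin on V. These are counts of genes, so the summit shared by col-159 and col-160 on V counted for both. The summit shared by col-3 and col-117 on IV did so too. Collagen genes lay in the central part of 3 equal parts of a chromosome in 52.4% of cases, against 37.8% of all genes. There 10 of 89 had a summit (11.2%, against 25.0% of all genes), and in the outer parts 6 of 81 (7.41%, against 18.7%).

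Of the collagen genes with a divergent neighbour upstream, 9 of 57 had a summit (15.8%), against 30.0% of all genes with such a neighbour. With an upstream neighbour in the same direction it was 5 of 80 (6.25%, against 14.4% of all genes). Among the 33 collagen genes whose 5′ end lay inside another protein-coding gene it was 2 (6.06%, against 16.0%). These were col-80, inside dph-2, and col-159, inside the collagen gene col-160 with which it shares its summit. Such nesting held for 19.4% of collagen genes, against 6.96% of all genes. Of the 3 classes of gap to the upstream gene, the shares were closest at over 500 and up to 1000 bp. There 8 of 32 had a summit (25.0%, against 27.4%), namely col-10, col-63, col-3, col-117, col-2, col-38, col-62 and col-8. The summits of col-2, col-38, col-62 and col-8 were nearest to another gene's 5′ end, and col-3 and col-117 shared a summit. At up to 500 bp it was 2 of 30 (6.67%, against 28.1%), and at over 1000 bp 4 of 75 (5.33%, against 15.6%). Where the upstream gene was itself a cuticle collagen gene and the 5′ end lay outside other genes, 2 of 20 had a summit (10%). Among all genes with such a neighbour it was 12.1%. The 2 were col-3 and col-117, each the upstream gene of the other, and they shared a single summit.

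**Figure D4:**
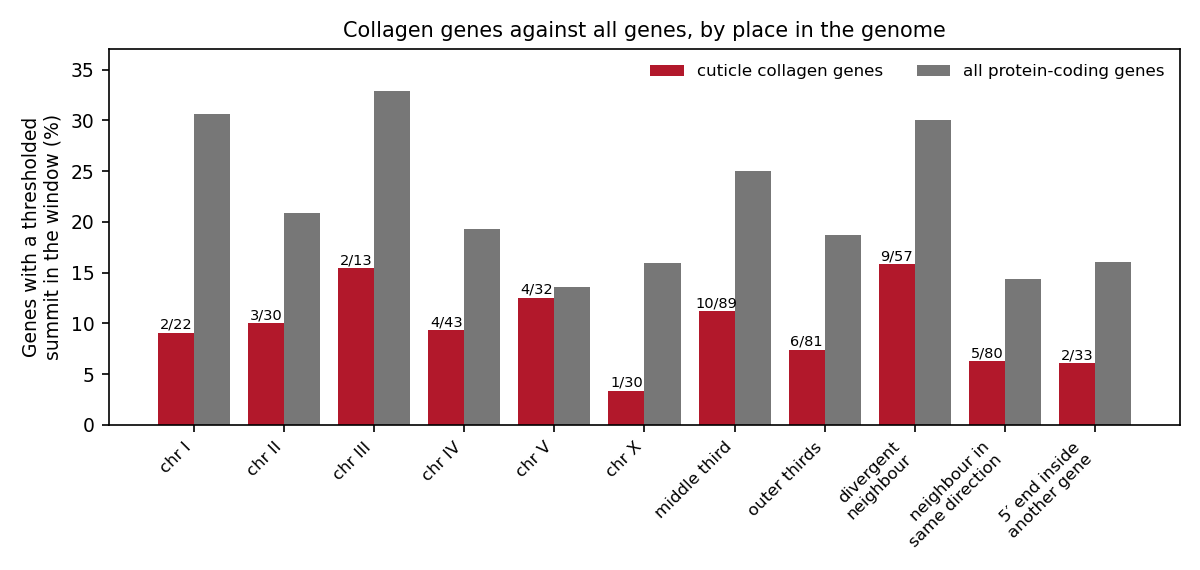
Percent of genes with a thresholded summit in the promoter window, for cuticle collagen genes (red, with counts above the bars) and all protein-coding genes (grey), by chromosome, by central or outer parts of the chromosome and by the neighbour upstream. The red bar is lower in every group, and the gap is narrowest on chromosome V, with 12.5% against 13.6%. On V the summit shared by col-159 and col-160 counts for both genes.

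The letters of the promoters were counted in the 300 bases from 250 before to 50 after the 5′ end. Both strands were searched for 6 words of 6 bases, and words could share end letters. TATAAA, the letters of the TATA box, occurred in 66.5% of collagen promoters, against 37.9% of all promoters. GATAAG, the letters bound by GATA factors, such as the epidermal ELT-1 and ELT-3, occurred in 25.9%, against 16.7%. AGGTCA, the core letters of sites for nuclear hormone receptors such as NHR-23, occurred in 14.7%, against 8.27%. GAGAGA, the letters of a GA repeat, occurred in 28.2%, against 21.8%. TTTCAG, the letters of a worm splice acceptor, occurred in 35.3%, against 51.7%. CACGTG, an E-box, occurred in 1.76%, against 5.82%. Of the 16 collagen genes with a thresholded summit, TATAAA occurred in the promoters of 11, GAGAGA in 6 and TTTCAG in 6. GATAAG occurred in 3 of them, AGGTCA in 2 and CACGTG in 0. Over all 170 collagen promoters these counts were, in the same order, 113, 48, 60, 44, 25 and 3. Whether genes with a summit differ from the other collagen genes in these words was not tested. In the same stretch of 50 bases to either side of the 14 summits GATAAG occurred at 2, AGGTCA at 3 and TATAAA at 1. Over all 6850 summits these were found at 4.64% for GATAAG, 3.34% for AGGTCA and 5.21% for TATAAA. The most common of the 6 words around all summits was GAGAGA, at 28.1%, and 1 of the 14 collagen summits had it. A match describes letters and not a bound site. The median GC content of the promoters was 38.0% for collagen genes and 34.3% for all genes.

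The proteins were searched for the repeats of collagens, which do not tell cuticle collagens from other collagens. Translated from the annotation, 169 of the 170 members have at least 3 Gly-X-Y triplets in a row, and such runs make up a median of 50.7% of a protein. The exception is col-17, whose annotated protein of 277 residues has none. The median length is 304 residues, from 154 to 948, the longest being that of bli-1. In 33 members the protein is over 90% identical to that of another member, and 6 of these are among the 16 with a thresholded summit. The median identity to the closest member was 78.75% for members with such a summit and 58.0% for those without. This difference was not tested. More than 20% of the 31-base words of the window occur elsewhere in the genome in 10 collagen genes (5.88%), against 9.01% of all genes. Among the 160 collagen genes at or below that level, 13 had a thresholded summit (8.12%), against 22.4% of all such genes. The 3 above it with a summit were col-3, col-117 and col-62, whose protein is 99.1% identical to that of col-7.

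Other genes of cuticle formation were counted in the same way, beside the 21.1% of all protein-coding genes. Of 20 genes for enzymes and secretion of cuticle collagen, 5 had a thresholded summit (25.0%). The strongest was at pdi-2, a subunit of collagen prolyl 4-hydroxylase, with a signal of 458 at -28 bp and 223 and 233 in the replicates. It was followed by bli-4, a proprotein convertase gene, with 228, dpy-31, a procollagen C-proteinase gene, with 197, and mlt-7, a peroxidase gene, with 100. dpy-18 and phy-2, the catalytic subunits of collagen prolyl 4-hydroxylase, had none, and dpy-18 had a pooled region of 31.7. Of 28 regulators of the epidermis and the molt, 10 had a thresholded summit (35.7%). Their signals ran from 82.6 to 397 with a median of 167, against a median of 283 over all genes with a summit. The strongest of the 10 were lin-28, an RNA-binding protein gene of developmental timing, with 397, and myrf-1, a membrane-bound transcription factor gene, with 344. Next were sma-2, a Smad gene, with 310, and lin-14, a timing factor gene, with 259. nhr-67 and nhr-41 had none.

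Of 25 other cuticle and molting genes 0 had a thresholded summit, among them the cuticlin genes cut-1 and cut-2, and 5 had a pooled region, the highest being dpy-1 with 35.4. Of 6 basement membrane and other collagen genes 0 had one. There emb-9, a type IV collagen gene, had no region, and let-2, the other type IV collagen gene, had a pooled region of 38.4. Of 7 cuticle collagen genes that the name rule leaves out, bli-6 had a thresholded summit of 734 at -339 bp, with 386 and 347 in the replicates, in a window shared with hrpf-2. dpy-4 and dpy-14 had none. Differences between these lists were not tested.

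**Figure D5:**
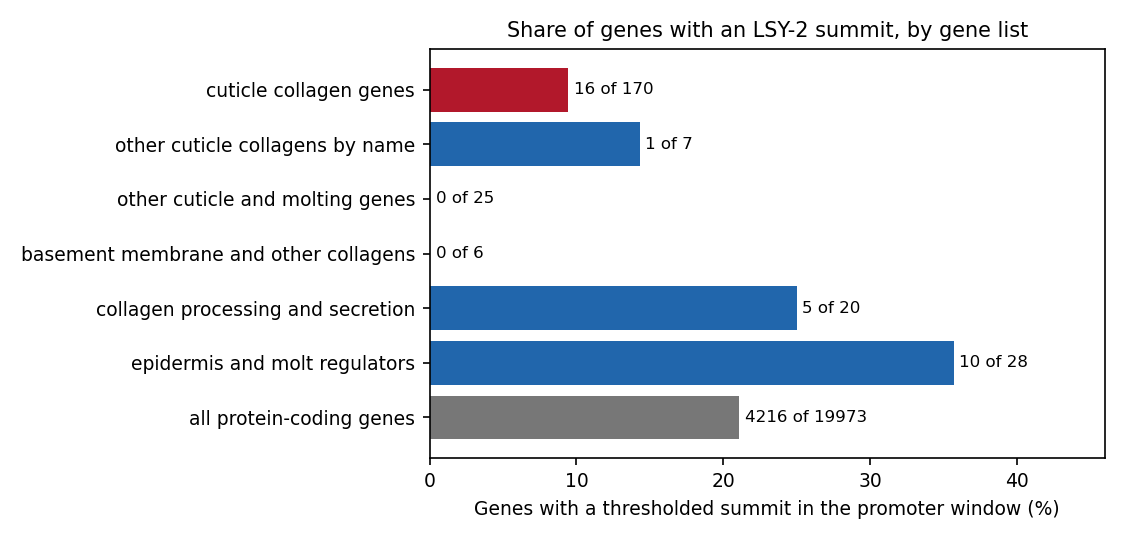
Percent of genes with a thresholded LSY-2 summit in the promoter window, with counts beside the bars, for the cuticle collagen genes (red), 5 other lists of cuticle and epidermal genes (blue) and all protein-coding genes (grey). The collagen genes, at 9.41%, lie under all protein-coding genes, at 21.1%, and the regulators, at 35.7%, above them.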

How the data were processed

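LSY-2 was mapped by transcription factor ChIP-seq in 2 replicates of whole starved L1 larvae, with fragments of 150 to 350 bp per the labels. As the README texts deposited with the lists state, the regions of a replicate were derived from its alignments and a control, the pooled list from both replicates and a control, and the thresholded list by an irreproducible discovery rate analysis of these 3. The aligner and peak caller, with versions, and the depth per sample were not given in the sources used here. The deposited signal value per region was used as it stands, and its scaling is not stated. The deposited −log10 q was used only to describe regions, and the summit offset of the deposited lists gave the positions. Lists in ce10 were not used.

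Coordinates are 1-based, in ce11 (WBcel235). Genes came from Ensembl release 115 and sequence from RefSeq. Replicate values are those of the region with its summit within 100 bp, and of several the nearest. The computations used Python 3.11.15, pandas 2.3.3 and Biopython 1.88, and the window search was tested on simulated data. Proteins were aligned globally with the members most like them in words of 4 residues, and identity is over the longer protein.

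The members and gene lists were chosen with earlier results of these data known. Named are all members with a thresholded summit, all with a body shape name, the strongest 10 pooled regions outside the thresholded list, the 5 members whose nearest summit lies closest outside the window, and for other lists up to 4 genes with the strongest summits and the first 2 listed without one. No gene named ram-4 was in the annotation. No test was run, since there was 1 group. Alternatives were other windows, peak overlap, other 5′ ends, the nearest 5′ end alone, the stronger peaks, each replicate alone, genes with a pooled region as background, and other matches between replicates.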

Additional observations from a re-analysis of the deposited data

How the results depend on the processing

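The count of 16 collagen genes was between 11 and 22 over the other windows, peak overlap and other transcripts' 5′ ends, and in each of these the share of collagen genes stayed below that of all genes. It was 9 with the nearest 5′ end alone and 6 with the stronger 3425 peaks (3.53%, against 14.6% of all genes). The 8 collagen genes with a summit in no other window became 3 with 500 bp upstream and 100 bp downstream and 3 with the stronger peaks, whose collagen median signal was 546, as weaker summits were removed. Among genes with a pooled region, 56.0% of all genes had a summit, a background added after seeing the data. Leaving out a replicate gave 15 (without replicate 2) to 19 (without replicate 1) collagen genes, of which 14 and 16 were among the 16, and the 2 lost without replicate 2 were col-10 and col-80. It gave 7 to 11 with a summit of their own, median signals of 70.2 to 74.9 on each replicate's own scale, and 21.2% of all genes both times. No paired analysis was possible because there was a single group. Depth is unknown, so whether a missing summit reflects depth was not tested.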
